A study of Oryzias latipes with 6 samples.

Results

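The genes for sperm proteins that bind and fuse with the egg were examined in medaka testis. 6 genes were sought by name in a table of 24365 genes: izumo1, spaca6, spaca4, dcst1, dcst2 and tmem81. 3 of them were found, dcst1 and dcst2 by gene name and tmem81 through the gene name of its protein match. A 4th row without a symbol carries the NCBI gene number that RefSeq assigns to spaca6, and it was added by that number. izumo1 and spaca4 were matched by no row and are not analysed here.

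Medaka (Oryzias latipes) is a small laboratory fish, and RNA of whole testes was sequenced. The wild type and the nphp4 mutant each gave 3 libraries. The mutant is labelled nphp4 -/-, a mutation in both copies of the gene for nephrocystin-4, a protein at the base of cilia. Each library pooled the testes of 2 fish. The labels used here give no strain, age or description of the lesion. The comparison asks which testis transcripts differ between the genotypes.

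Fish sperm reach the egg membrane through a pore in the egg coat, the micropyle, and then bind and fuse with it. In zebrafish and mammals, Izumo1, Spaca6 and Tmem81 are sperm membrane proteins of the immunoglobulin-like kind that act as a complex, and in zebrafish this complex meets the egg protein Bouncer. Dcst1 and Dcst2 are multi-pass membrane proteins related to the fusion protein of osteoclasts, and sperm of mice lacking either fail to fuse with eggs. SPACA4, the mammalian relative of Bouncer, sits on sperm in mice. The transcripts of such proteins are made by male germ cells.

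All 4 genes found were transcribed in every library. The unit is FPKM, fragments scaled to gene length and to a size factor of the library. Comparisons of level between genes rest on the gene lengths given with the values, which were not checked. dcst2 was the highest, at 45.9 to 94.4 FPKM over the 6 libraries, and dcst1 followed at 21.7 to 44.8 FPKM. tmem81 was at 11.2 to 17.3 FPKM and spaca6 at 4.66 to 11.6 FPKM. This order held within each of the 6 libraries. The ranges of dcst2, dcst1 and tmem81 did not overlap, whereas those of tmem81 and spaca6 did by a narrow margin. By mean level dcst2 stood above 90.9% of the 15203 genes tested, dcst1 above 82.4%, tmem81 above 65.4% and spaca6 above 47.4%.

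None of the 4 genes passed the test of mutant against wild type. limma, a linear model of log2(FPKM + 1) fitted over all genes, called 0 of the 4 at a Benjamini-Hochberg adjusted p below 0.05, and 0 had an unadjusted p below that value, as 7.13% of all tested genes did. limma-voom on read counts gave the same 2 counts of 0. Over all genes, limma called 9 of 15203 (0.0592%), and limma-voom called 0, with 1050 genes at an unadjusted p below 0.05. The limma count was 18 without wild type 3, 4 without wild type 1, 3 without mutant 1, and 2 without mutant 2 or mutant 3. The 2 groups overlapped for each of the 4 genes, where 14.0% of all tested genes had groups without overlap. RNA of whole testes was measured, so fewer cells of a type and less RNA per cell cannot be told apart. Nothing in the labels says whether a library is a separate rearing batch, so p-values measure the spread between these pools of fish.

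**Figure D1:**
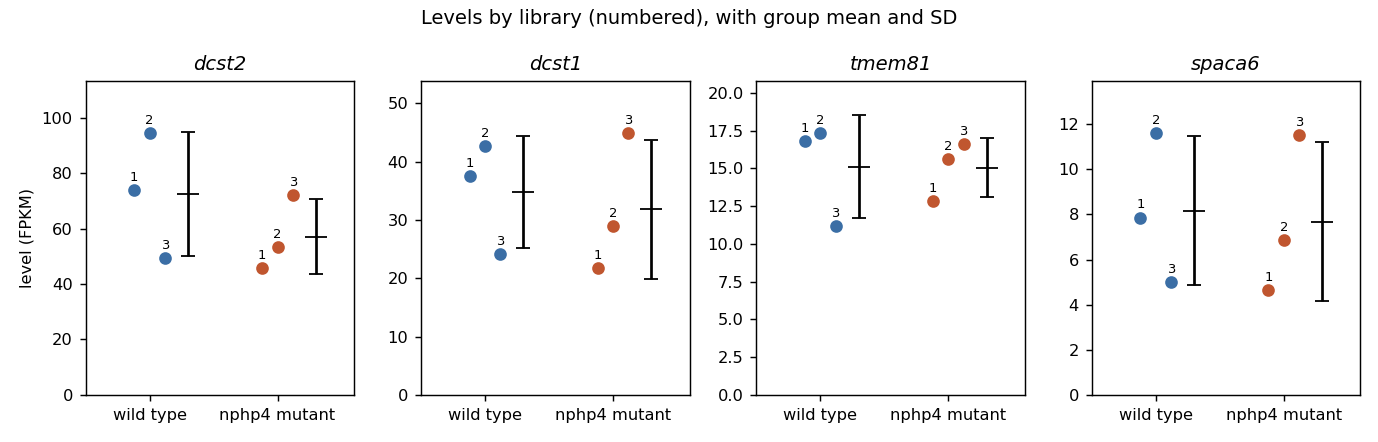
Levels of dcst2, dcst1, tmem81 and spaca6 in FPKM, 1 panel per gene, with 1 numbered point per library and the group mean with SD beside it (n = 3). Wild type 2 is the highest and wild type 3 the lowest of its group in every panel, mutant 3 is the highest and mutant 1 the lowest of its group, and the groups overlap for all 4 genes.

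dcst2 (ENSORLG00000025850, chromosome 16, 31778302 to 31790426, minus strand) encodes DC-STAMP domain containing 2. Its level was 73.8, 94.4 and 49.5 FPKM in wild type 1, 2 and 3, and 45.9, 53.3 and 72.2 FPKM in mutant 1, 2 and 3. Mutant 2 and mutant 3 lay inside the wild-type range, and wild type 3 lay inside the mutant range. The wild-type mean was 72.5 ± 22.5 FPKM and the mutant mean 57.1 ± 13.6 FPKM (SD, n = 3). The log2 difference, mutant minus wild type, was -0.32 (SE 0.27, 95% interval -0.95 to 0.32, adjusted p = 0.856, limma). Without wild type 3, the library with the most digestive gland RNA described below, it was -0.56 (SE 0.22, unadjusted p = 0.0406, adjusted p = 0.567, limma). Without mutant 3 it was -0.49 (SE 0.28, adjusted p = 0.992, limma). It shrank to -0.10 without wild type 2 and to -0.17 without mutant 1.

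dcst1 (ENSORLG00000028335, chromosome 16, 31788887 to 31809013, plus strand) encodes DC-STAMP domain containing 1, whose human match is annotated as a ubiquitin ligase. Its level was 37.5, 42.7 and 24.2 FPKM in wild type 1, 2 and 3, and 21.7, 28.9 and 44.8 FPKM in mutant 1, 2 and 3. The highest and the lowest of the 6 values were both in mutant libraries. The means were 34.8 ± 9.55 and 31.8 ± 11.9 FPKM (SD, n = 3), with a log2 difference of -0.15 (SE 0.31, 95% interval -0.88 to 0.58, adjusted p = 0.930, limma). The difference was 0.013 without wild type 2 and 0.086 without mutant 1, so its sign rests on those libraries. Without wild type 3 it was -0.38, and without mutant 3 it was -0.42.

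tmem81 (ENSORLG00000025411, chromosome 7, 28330900 to 28338437, minus strand) encodes transmembrane protein 81. It was at 16.8, 17.3 and 11.2 FPKM in wild type 1, 2 and 3, and at 12.8, 15.6 and 16.6 FPKM in mutant 1, 2 and 3. All 3 mutant values lay inside the wild-type range. The means were nearly equal, 15.1 ± 3.41 and 15.0 ± 1.96 FPKM (SD, n = 3), and the log2 difference was 0.011 (SE 0.20, 95% interval -0.46 to 0.48, adjusted p = 0.993, limma). Its sign turned to -0.18 without wild type 3, to -0.061 without mutant 3 and to -0.019 without mutant 2.

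spaca6 (ENSORLG00000022289, chromosome 16, 14802773 to 14810824, minus strand) encodes sperm acrosome associated 6, which mouse sperm need to fuse with the egg. It was at 7.87, 11.6 and 5.01 FPKM in wild type 1, 2 and 3, and at 4.66, 6.87 and 11.5 FPKM in mutant 1, 2 and 3. The range of one group nearly equalled that of the other. The means were 8.16 ± 3.30 and 7.69 ± 3.51 FPKM (SD, n = 3), with a log2 difference of -0.089 (SE 0.37, 95% interval -0.96 to 0.78, adjusted p = 0.966, limma). It was 0.17 without wild type 2, 0.18 without mutant 1, -0.36 without wild type 3 and -0.39 without mutant 3. The lower bounds for dcst2, dcst1 and spaca6 were all at or below -0.88, so 3 libraries a group did not resolve smaller changes. In the 2-sided exact permutation test over libraries, p was 0.4 for dcst2, 0.8 for dcst1, 1.0 for tmem81 and 0.7 for spaca6, where 0.1 is the smallest p that 3 against 3 allows.

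**Figure D2:**
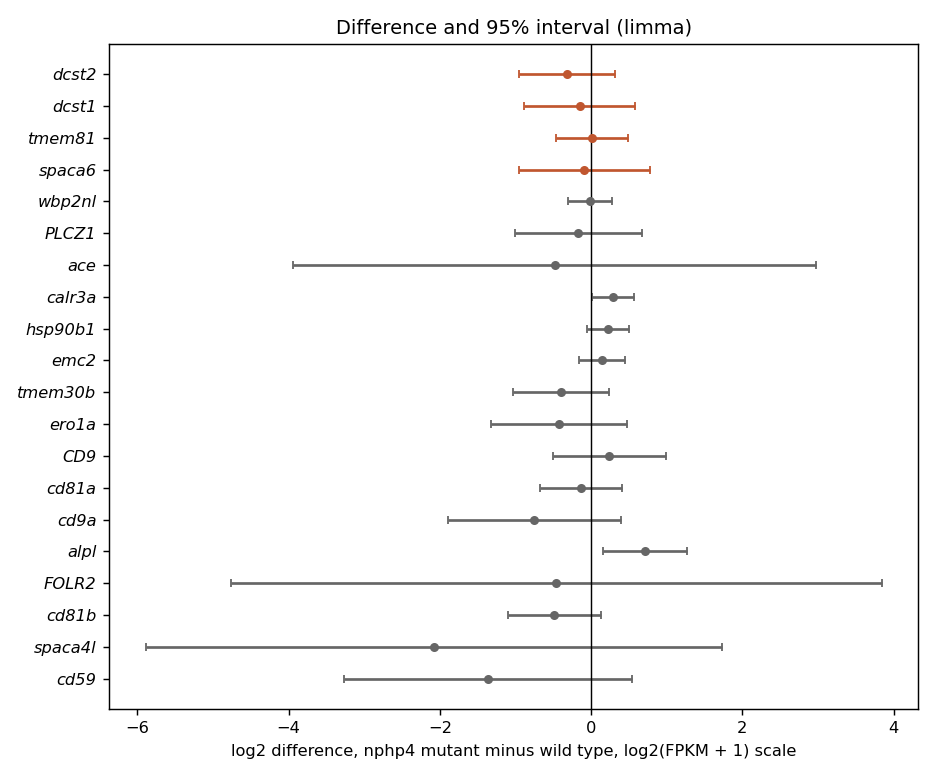
Log2 difference of mutant minus wild type on the log2(FPKM + 1) scale with its 95% interval from limma, for the 4 sperm-egg genes (orange) and for tested genes of the related lists (grey). Of the 17 tested genes that fold and process sperm membrane proteins, only the 3 most abundant and the 2 with the largest difference are drawn. The intervals of the 4 genes all include 0, and those of ace, FOLR2 and spaca4l are the widest drawn.

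For each of the 4 genes, the highest and lowest library of a genotype lay further apart than the 2 group means. Single libraries spread more widely than means do, so this is a description. In wild type the highest library held 1.91 times the lowest for dcst2, 1.77 times for dcst1, 1.55 times for tmem81 and 2.31 times for spaca6. In the mutant these ratios were 1.57, 2.07, 1.29 and 2.47 in the same order. The ratio of the group means, mutant over wild type, was 0.788 for dcst2, 0.914 for dcst1, 0.996 for tmem81 and 0.942 for spaca6. The within-group SD on the log2 scale was 0.56 for spaca6, 0.47 for dcst1, 0.40 for dcst2 and 0.27 for tmem81, above 88.1%, 84.1%, 79.3% and 58.2% of the tested genes. Between 302 and 3781 reads lay behind each value, and the 95% Poisson interval of a value spanned 3.20% to 11.4% on either side, for counting error only.

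The order of the libraries was the same in all 4 genes. Within wild type it ran from library 2 to library 1 to library 3, and within the mutant from library 3 to library 2 to library 1, from high to low. For tmem81 the step between wild type 1 and 2 lay within counting error, with intervals of 15.4 to 18.3 and 15.9 to 18.9 FPKM, and the intervals of mutant 2 overlapped those of both mutant 1 and mutant 3. The same order of libraries was found in 7.08% of all tested genes, and in 16.2% of the 2748 tested genes whose level and within-group SD were at least those of the lowest of the 4. It was noticed in these values and then counted, so it is a description. All 4 genes kept it when each library was rescaled to an equal sum or to its reads on genes, where 9.43% and 7.84% of tested genes had it. nphp4 itself had this order too, at 17.1, 23.5 and 12.2 FPKM in wild type 1, 2 and 3 and 6.84, 7.00 and 10.9 FPKM in mutant 1, 2 and 3. Its groups did not overlap (log2 difference -0.99, SE 0.27, adjusted p = 0.436, limma), so the targeted transcript was lower in each mutant library but not called.

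**Figure D3:**
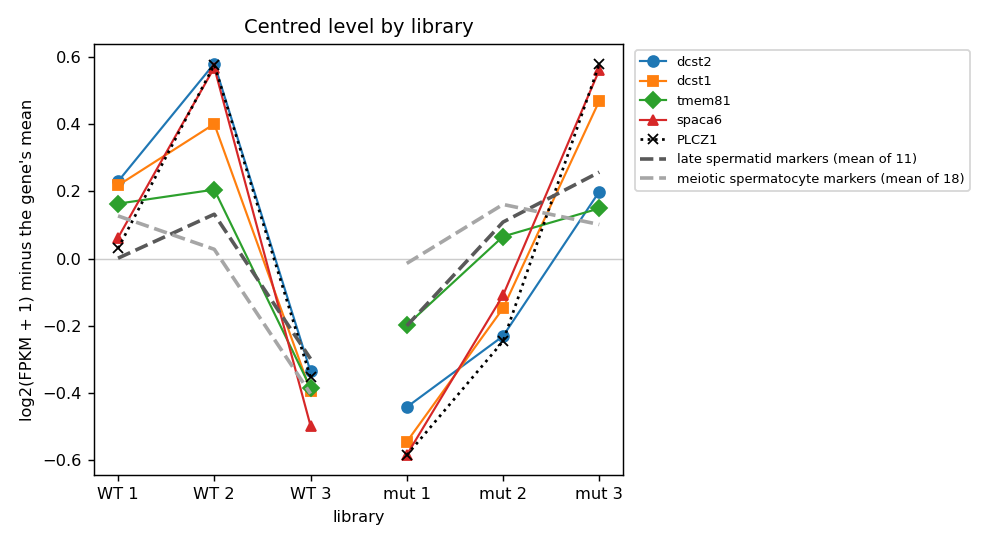
Log2(FPKM + 1) minus the gene's own mean over the 6 libraries, for dcst2, dcst1, tmem81, spaca6 and PLCZ1 and for the mean of 11 late spermatid and 18 meiotic marker genes. Lines join the values of a gene within a group and imply no order of libraries. Within each group the sperm-egg genes are lowest in wild type 3 or mutant 1 and highest in wild type 2 or mutant 3. The mean of the spermatid markers spans a narrower range, as averaging over genes whose orders differ can give.

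Markers of germ cell stages were compared with this pattern. The late spermatid list had 15 rows, of which 11 were tested and 0 called by limma or limma-voom (1 at an unadjusted p below 0.05 in each), with 8 positive and 3 negative differences and a median of 0.067 against 0.0075 over all tested genes. Without wild type 3 it had 5 positive and 6 negative differences and a median of -0.027. Its mean centred log2 level was 0.0010, 0.13 and -0.30 in wild type 1, 2 and 3 and -0.20, 0.11 and 0.26 in mutant 1, 2 and 3. The mean of the spermatid list thus had the same order of libraries as the 4 genes. Its range was narrower than that of their mean, but averaging over genes whose orders differ narrows a range, so this is a description. The 4 genes' own mean was 0.17, 0.44 and -0.40 in wild type 1, 2 and 3 and -0.44, -0.11 and 0.34 in mutant 1, 2 and 3. 3 of the 11 spermatid genes had this order by themselves. Among them spag6, a protein of the sperm axoneme, ranged from 22.1 FPKM in wild type 3 to 45.0 FPKM in mutant 3, with group means of 33.3 ± 10.2 and 34.5 ± 9.57 FPKM (SD, n = 3). rsph1, a radial spoke protein of the axoneme, was at 23.8 to 42.7 FPKM over the 6 libraries, also lowest in wild type 3 and highest in mutant 3. spata18, a gene of mitochondrial quality control, was at 10.4 to 17.2 FPKM among wild-type libraries and 14.5 to 20.5 FPKM among mutant ones. ropn1l, a ropporin-like protein of the radial spoke, was the list gene whose groups did not overlap, at 19.2 to 19.7 and 22.5 to 27.2 FPKM (log2 difference 0.31, adjusted p = 0.680, limma). gapdhs, the glycolytic enzyme of the sperm tail, ranged from 243 to 322 FPKM among wild-type libraries and from 305 to 361 FPKM among mutant ones. 1 of 18 meiotic genes, 0 of 14 spermatogonial genes and 1 of 21 Sertoli and Leydig cell genes had this order. Of the 18 meiotic genes tested, 14 had a positive and 4 a negative difference, with a median of 0.097, and 4 had groups that did not overlap. Over all tested genes, 51.3% had a positive difference and 14.0% had groups without overlap. limma and limma-voom called 0 of the 18 meiotic genes, with 2 at an unadjusted p below 0.05 in each. Without wild type 3 their split was 9 to 9 with a median of -0.017. dmc1, the recombinase of meiosis, was at 176, 169 and 155 FPKM in wild type 1, 2 and 3 and 201, 265 and 224 FPKM in mutant 1, 2 and 3 (log2 difference 0.46, adjusted p = 0.464, limma). mnd1, its partner in strand exchange, was at 72.7 to 107.1 FPKM among wild-type libraries and 107.4 to 126 FPKM among mutant ones (log2 difference 0.51, adjusted p = 0.581, limma). Each mutant value of dmc1 and mnd1 was above each wild-type value. hormad1, sycp1 and spo11, genes of the meiotic chromosome axis, of synapsis and of strand breaks, had overlapping groups at 557 to 759, 218 to 333 and 230 to 306 FPKM. The spermatogonial list had 8 positive and 6 negative differences among 14 tested, 0 called by limma or limma-voom and 0 at an unadjusted p below 0.05. Without wild type 3 it had 2 positive and 11 negative differences among 13 tested, with a median of -0.091. piwil1, dazl and PIWIL2, germ-cell genes of RNA control, were at 317 to 519, 265 to 356 and 65.1 to 95.9 FPKM with overlapping groups. id4, a transcriptional regulator of spermatogonia in mice, reached 53.2 FPKM in wild type 3, against 2.68 to 12.1 FPKM elsewhere. etv5a, a transcription factor gene, was at 4.65 to 5.35 FPKM among wild-type libraries and 3.48 to 4.28 FPKM among mutant ones (adjusted p = 0.767, limma).

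Set against the spermatid markers, the 4 genes had negative differences. The exact permutation test of 3 libraries against 3 has 0.1 as its smallest p. It could not reach a threshold of 0.05, so no conclusion is drawn from its p-values. The measure was the gene's log2(FPKM + 1) minus the mean of the 11 tested spermatid markers in the same library. The marker mean was itself 0.11 higher in the mutant, and this is subtracted from each gene's own difference, which for tmem81 was 0.011. For dcst2 it was 1.82, 2.04 and 1.55 in wild type 1, 2 and 3, and 1.35, 1.25 and 1.53 in mutant 1, 2 and 3, so the groups did not overlap, by a margin small against their spread. They did overlap when each library was rescaled to an equal sum (p = 0.2, exact permutation test). The difference was -0.43, with p = 0.1 in the 2-sided exact permutation test, the smallest p possible, and 0.4 adjusted over the 4 genes. The differences were -0.26 for dcst1, -0.20 for spaca6 and -0.099 for tmem81 (adjusted p = 0.4, 0.5 and 0.4, exact permutation test), with overlapping groups in each. With any single library left out the differences stayed negative, at -0.55 to -0.31 for dcst2. Those of spaca6 were -0.030 without wild type 2, -0.056 without mutant 1, -0.35 without wild type 3 and -0.40 without mutant 3.

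dcst1 and dcst2 lie head to head. The annotated spans overlap by 1540 bases at their 5′ ends on opposite strands. Whether counting used strand is not given in the sources used here, so reads in the overlap may have been given to either gene or dropped. dcst1 also overlaps the 5′ end of adam15, a membrane metalloprotease on the same strand, by 756 bases, and holds within its span ENSORLG00000030600, a match to a transposon protein on the other strand at 0.117 FPKM on average. adam15 was at 11.6, 16.7 and 10.0 FPKM in wild type 1, 2 and 3 and 9.88, 10.3 and 12.1 FPKM in mutant 1, 2 and 3. Its libraries fell in the order of the pair. s100a14, a calcium-binding protein 1285 bases beyond dcst2, did not follow that order: it was highest in wild type 3, at 135 FPKM, and lowest in mutant 3, at 67.1 FPKM. Beyond adam15, a semaphorin-4B-like row (ENSORLG00000016896) was at 3.66, 5.10 and 4.90 FPKM in wild type 1, 2 and 3 and 8.21, 5.31 and 9.08 FPKM in mutant 1, 2 and 3, without overlap (log2 difference 0.60, adjusted p = 0.615, limma). The neighbours of spaca6, the hyaluronan synthase gene has1 and the microRNA gene ola-mir-125a, were at 0.019 to 0.32 FPKM and listed at 0. Of the rows beside tmem81, ENSORLG00000030577 was listed at 0 and ENSORLG00000027892 reached 13.9 FPKM in wild type 3 and 4.52 FPKM in mutant 2, with at most 0.097 FPKM in the other 4 libraries.

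**Figure D4:**
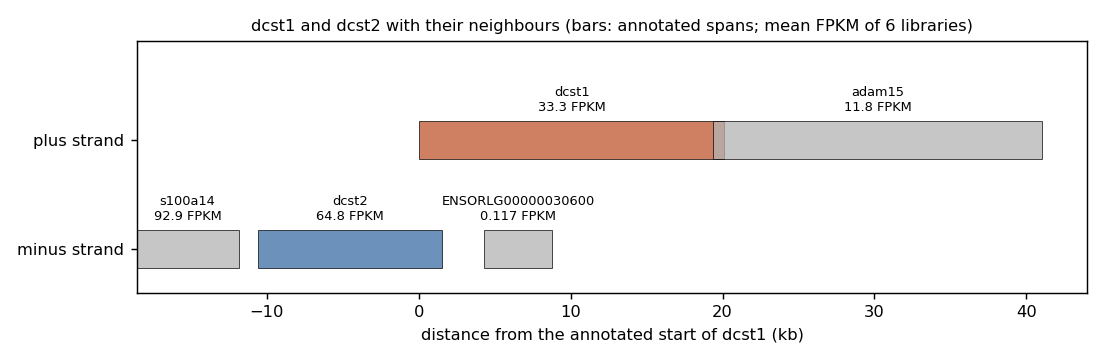
Annotated spans of dcst2, dcst1 and their neighbours on chromosome 16 by strand, as distance in kb from the annotated start of dcst1, with each gene's mean FPKM over the 6 libraries. dcst2 and dcst1 overlap at their 5′ ends, and dcst1 overlaps the start of adam15.

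The ratio of dcst1 to dcst2 varied less than either level. It was 0.508, 0.453 and 0.489 in wild type 1, 2 and 3 and 0.472, 0.542 and 0.621 in mutant 1, 2 and 3. Mutant 1 lay among the wild-type ratios. The wild-type mean was 0.483 ± 0.0283 and the mutant mean 0.545 ± 0.0746 (SD, n = 3), with a log2 difference of 0.17 (p = 0.3, 2-sided exact permutation test). The highest ratio was 1.37 times the lowest over all 6 libraries. Mutant 3 had the highest ratio, and the log2 difference was 0.067 without it and 0.26 without mutant 1. The ratio of spaca6 to tmem81, chosen after the values were seen and not tested, ran from 0.363 in mutant 1 to 0.694 in mutant 3, with wild type at 0.468, 0.670 and 0.449. Ratios to izumo1 could not be formed.

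**Figure D5:**
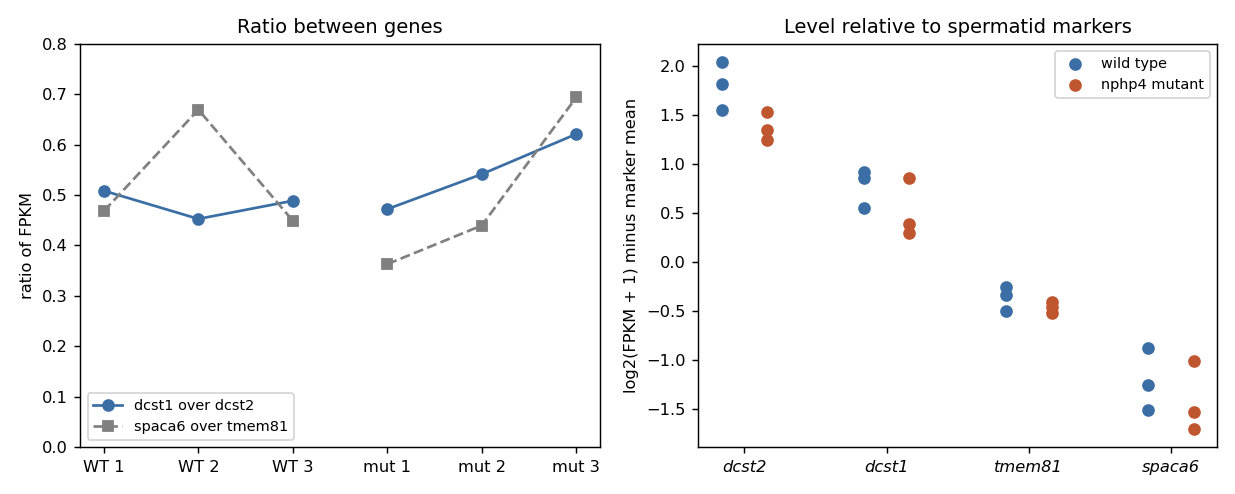
Left, FPKM ratio of dcst1 over dcst2 and of spaca6 over tmem81 in each library, with lines that imply no order. Right, log2(FPKM + 1) of each gene minus the mean of 11 late spermatid markers, 1 point per library, where the dcst2 groups do not overlap, by a narrow margin, and those of the other genes do.

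The genes whose centred profile over the 6 libraries lay nearest to each of the 4 were found by root-mean-square distance on the log2 scale, among 11834 other tested genes with a symbol. For spaca6 they were cfap45, a protein inside the microtubules of motile cilia and flagella (distance 0.059), and PLCZ1, the sperm phospholipase that starts calcium waves in the egg of mammals (0.083). dcst1 was the 8th nearest to spaca6 and spaca6 the 17th nearest to dcst1, at a distance of 0.11. For dcst1 the nearest were sema4e, a semaphorin (0.057), and wdr66, also a protein of the motile axoneme (0.058). For dcst2 they were ankha, a membrane protein of the pyrophosphate transporter family (0.046), and ADCY3, an adenylyl cyclase (0.095), and dcst1 was the 25th nearest. For tmem81 they were mkrn2, a makorin ring finger gene (0.032), and kansl2, a subunit of a histone acetyltransferase complex (0.036). Of the other members, dcst2 was the 3548th nearest to tmem81, dcst1 the 3721st and spaca6 the 6214th. In the other direction, tmem81 was the 345th nearest to dcst2, the 442nd to dcst1 and the 627th to spaca6. The distance also depends on how widely a gene varies, and tmem81 varied least of the 4. These distances rest on 6 libraries and describe them only.

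Of 47 other symbols listed for sperm proteins of egg binding and fusion, 4 had a row and 3 were tested. limma and limma-voom called 0 of the 3, with 0 at an unadjusted p below 0.05, and their median difference was -0.17, or 0.035 without wild type 3. PLCZ1 was at 22.4, 33.2 and 16.9 FPKM in wild type 1, 2 and 3 and 14.3, 18.3 and 33.2 FPKM in mutant 1, 2 and 3, the order of libraries seen above, with a log2 difference of -0.17 (SE 0.35, adjusted p = 0.932, limma). wbp2nl, proposed as another sperm factor of egg activation in mammals, was nearly level at 36.2 to 42.5 FPKM among wild-type libraries and 37.7 to 41.9 FPKM among mutant ones. spam1, the sperm hyaluronidase of mammals, was at 0.42 to 0.76 FPKM and was not tested. ace, a peptidase with a form of its own in mammalian testis, was at 18.9 FPKM in wild type 3, 5.95 FPKM in mutant 2 and at most 0.26 FPKM in the other 4 libraries.

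Genes that fold and process sperm membrane proteins were better represented, with 21 rows for 27 symbols and 17 tested. 11 were positive and 6 negative, with a median of 0.087, and 0 were called by limma or limma-voom (1 and 0 at an unadjusted p below 0.05). In 4 of the 17 the groups did not overlap, beside 14.0% of all tested genes. calr3a, related to the calreticulin of mouse spermatids, was at 86.4, 96.9 and 105 FPKM in wild type 1, 2 and 3 and 120, 111 and 120 FPKM in mutant 1, 2 and 3. Each mutant value was above each wild-type value, with a log2 difference of 0.29 (SE 0.12, adjusted p = 0.683, limma). clgn, the calmegin chaperone of mouse spermatids, chosen after its values were seen, ranged from 38.9 to 47.2 FPKM among wild-type libraries and from 50.5 to 61.9 FPKM among mutant ones (log2 difference 0.30, adjusted p = 0.760, limma). calr3b, the paralog of calr3a and also chosen after its values were seen, was level, with means of 45.1 ± 14.5 and 45.2 ± 9.76 FPKM (SD, n = 3). hsp90b1, the heat shock chaperone of the endoplasmic reticulum, ranged from 88.5 to 98.3 FPKM among wild-type libraries and from 102 to 123 FPKM among mutant ones (adjusted p = 0.778, limma). emc2, a subunit of the membrane protein insertion complex, had overlapping groups at 90.8 to 118 FPKM over the 6 libraries. tmem30b, a flippase subunit, and ero1a, an oxidase of the endoplasmic reticulum, had log2 differences of -0.39 and -0.43 with overlapping groups.

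The egg-side partner Bouncer, which the table holds as the row ENSORLG00000022363, had no read in any of the 6 testis libraries. A count of 0 allows up to 3 reads, or 0.595 to 0.724 FPKM for this short row, for counting error only. Of 23 symbols for egg-side partners and egg coat proteins, 7 had a row and 6 were tested, with 0 called by limma or limma-voom and 1 at an unadjusted p below 0.05 in each. CD9, a tetraspanin that eggs of mice need for fusion, ranged from 41.3 to 52.3 FPKM among wild-type libraries and from 32.8 to 80.5 FPKM among mutant ones. The related tetraspanin cd81a had a log2 difference of -0.13, cd9a of -0.75 and cd81b of -0.49, each with overlapping groups. FOLR2, a folate receptor of the family of the mouse egg receptor Juno, reached 42.1 FPKM in wild type 3 and 15.9 FPKM in mutant 2, with at most 0.97 FPKM in the other 4 libraries. zp3b, a coat protein gene of the egg, was at 0.35 to 1.27 FPKM. alpl, an alkaline phosphatase of the same list, ranged from 6.02 to 6.65 FPKM among wild-type libraries and from 8.58 to 16.2 FPKM among mutant ones, with a log2 difference of 0.71 (adjusted p = 0.554, limma).

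A row named spaca4l, for spaca4-like, was not counted as spaca4 because the symbol differs (ENSORLG00000029444, chromosome 11, 5539257 to 5553536). It was at 24.2, 0.13 and 47.7 FPKM in wild type 1, 2 and 3, from 819, 4 and 1328 reads, and at 3.09, 1.37 and 0.90 FPKM in mutant 1, 2 and 3, from 90, 38 and 30 reads. Wild type 2 lay below every mutant library and the other wild-type libraries above them. The log2 difference was -2.08 (95% interval -5.89 to 1.73, adjusted p = 0.841, limma). cd59, another member of the Ly6 family, reached 21.2 FPKM in wild type 3, against 0.69 to 4.26 FPKM in the other libraries. The fusion genes of osteoclasts, DCSTAMP and ocstamp, were at 0 to 0.094 and 0 to 0.47 FPKM. A further row, ENSORLG00000026905, is described as similar to spaca4 but matches the DNA mismatch protein Msh5, and at 0.41 to 0.60 FPKM it was not tested.

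The libraries held 13438879 to 16054354 reads on genes. gsdf and amh, somatic factors that mark the medaka testis, were at 746 to 1078 and 64.1 to 127 FPKM, as the tissue label gives. A row named dmy, on chromosome 9, was at 54.2 to 89.8 FPKM. Whether this row is the gene of that name or a related gene was not checked. star, the cholesterol carrier of steroid-making cells, was at 11.0 to 28.9 FPKM among wild-type libraries and 17.5 to 58.1 FPKM among mutant ones, and cldn11b, a claudin, reached 7.41 FPKM in wild type 3 against at most 0.60 FPKM elsewhere. The 9 rows of oocyte markers summed to 9.61 to 12.1 FPKM per wild-type library and 8.28 to 10.8 FPKM per mutant library, with members that differed in opposite directions. 3 of the 5 tested had groups that did not overlap and an unadjusted p below 0.05, beside 14.0% and 7.13% of all tested genes. The gene lists were chosen with earlier results of these data known, so such counts are descriptions. limma and limma-voom called 0 of the 5. btg4, a regulator of mRNA decay, was at 0.13 to 1.07 FPKM among wild-type libraries and 1.96 to 4.69 FPKM among mutant ones (log2 difference 1.39, adjusted p = 0.340, limma). lhx8 and figla, transcription factor genes of the oocyte, had log2 differences of -0.72 and -0.47 (adjusted p = 0.436 and 0.657, limma). Digestive gland genes stood apart in wild type 3: the 17 rows of that list summed to 23952 FPKM there against 1365 and 1620 FPKM in wild type 1 and 2 and 327 to 3238 FPKM in the mutant. prss1, CELA1 and cpb1, genes of pancreatic proteases, were at 8632, 3667 and 2287 FPKM in wild type 3 and at most 1164, 584 and 360 FPKM in any other library. tfa, the plasma iron carrier transferrin, was at 57.3 to 130 FPKM among wild-type libraries and 17.4 to 39.1 FPKM among mutant ones (log2 difference -1.61, adjusted p = 0.398, limma). All 12 tested digestive genes had a negative difference, against 5 of 12 without wild type 3, with 0 called by limma or limma-voom and 1 at an unadjusted p below 0.05 in each. The 4 sperm-egg genes summed to 89.9 FPKM in wild type 3 and 85.1 FPKM in mutant 1, their lowest libraries. Without wild type 3 all 4 genes had a negative difference, with a median of -0.37 and 0 called by limma (1, dcst2, at an unadjusted p below 0.05). Wild type 3 was the lowest of its group for each of them. Without mutant 3, the highest of its group, all 4 were negative too. These differences were -0.49 for dcst2, -0.42 for dcst1, -0.061 for tmem81 and -0.39 for spaca6. Without wild type 2, the highest of its group, dcst1, tmem81 and spaca6 were positive, at 0.013, 0.12 and 0.17. The same genes were positive without mutant 1, the lowest of its group, at 0.086, 0.11 and 0.18. dcst2 was negative in both cases, at -0.10 and -0.17. The part of the digestive RNA in these values was not tested.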

How the data were processed

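RNA of medaka testis was measured in 6 libraries, 3 per genotype, with replicate numbers from the titles. Tools listed in the submitters' processing notes, without roles, are featureCounts 1.5.0-p3, HISAT2 2.0.5, fastp, DESeq2 1.20.0 and CASAVA 1.8; genome build, annotation release and strand setting are not given in the sources used here, and coordinates are those of the table. The authors deposited 1 FPKM value per gene and library. Times the deposited gene length, 100% of the values above 0 were whole multiples of 1 read within 0.01 read, which gave the read counts used for limma-voom and counting intervals. The per-library scale of the deposited FPKM equals median-ratio size factors of these reads, within 0.1% for 100% of values, and not the reads on genes.

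limma 3.58.1 (R 4.3.3) was fitted to log2(FPKM + 1), with intensity trend and robust empirical Bayes, over the 15203 genes that reached a group mean of 1 FPKM. This understates changes of low genes. Adjusted p-values run over all these genes at a threshold of 0.05. The fit was tested on simulated data. Their spread between libraries was set in advance, so this does not measure what could be detected for the 4 genes. Single values were compared by 2-sided exact permutation of libraries. spaca6 was named by matching the NCBI number of its row to RefSeq (assembly ASM223467v1).

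The members and gene lists were chosen with earlier results of these data known. Named by rule were the members, nphp4, in each list the 3 most abundant genes and the 2 with the largest difference, neighbours of the members, and the 2 nearest profiles. Other genes were named after their values were seen. Same-numbered libraries were treated as unpaired.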

Additional observations from a re-analysis of the deposited data

How the results depend on the processing

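With 9 genes called over the whole table, rescaling to equal library sums called 14 and limma-voom called 0; scaling to reads on genes, chosen after seeing the data, also called 14. The other settings with all libraries called 6 to 9, and leaving out 1 library 2 to 18. Median-ratio scaling returned the deposited values and so changed nothing. None of the 4 sperm-egg genes was called in the other 14 alternatives (adjusted p 0.567 to 0.998, limma), nor was any list gene tested in them, 89 to 134 by setting. dcst2 kept a negative difference in these 14; with 1 library left out it ran from -0.56 to -0.10. The range was -0.42 to 0.086 for dcst1, -0.39 to 0.18 for spaca6 and -0.18 to 0.12 for tmem81, and no other alternative turned a sign. Relative to spermatid markers no sign turned, but the dcst2 groups overlapped after rescaling to equal sums. The dcst1 to dcst2 ratio also kept its sign (0.067 to 0.26). With the replicate number as a block, 6 genes were called and 0 of the 4. The deviations of same-numbered libraries from their group means correlated at r = 0.31, -0.56 and -0.42 for numbers 1, 2 and 3. With 3 libraries per group, such values cannot show whether the libraries were paired by design. Causes were not tested. 3 libraries per group, and the spread between them, limit what could be detected.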
